A study of Mus musculus with 5 samples.

Results

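The 10 genes described here form the transcription factor circuit around Mitf and the receptors that feed it in pigment cells. They are Mitf, its paralog Tfe3, the transcription factors Sox10, Pax3, Tfap2a and Lef1, the transcriptional coregulator Cited1, and the receptors Kit, Ednrb and Mc1r. They were taken by symbol from the deposited table of 54699 genes, and all 10 were found in it, each under 1 identifier. Of these, 7 reached 1 FPKM (a read count divided by gene length and by a size factor of the library) in at least 1 library and belong to the 12842 genes compared. Kit, Lef1 and Ednrb did not and are given by their reads.

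Mitf is a basic helix-loop-helix leucine zipper protein of the MiT/TFE family. It binds E-box sequences, among them the M-box of pigment gene promoters, and is known as the master regulator of the melanocyte lineage. Its melanocyte promoter lies inside the gene and is known to be driven by Sox10, Pax3, Lef1 with beta-catenin, and Creb downstream of cAMP. Mc1r, the receptor for melanocortin peptides, raises cAMP, while Kit and the endothelin receptor Ednrb act through kinases that modify and turn over the Mitf protein.

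The 5 RNA-seq libraries, 1 per group, came from B16F10, a melanoma cell line of the mouse that makes pigment. Cells were infected with lentivirus that carried mouse Myod1, a muscle transcription factor, or Pparg, a nuclear receptor of fat cells, and were collected at day 8 with cells that had received the empty expression vector. Other cells received a short hairpin RNA against Setdb1, a histone methyltransferase, and were collected at day 7 with cells that had received the empty knockdown vector. The Myod1 and Pparg groups share their control. The labels give both controls as wild type, all groups were grown in medium with serum, and the promoter of the vectors, any selection and whether a group is 1 clone or a pool are not given in the sources used here. With 1 library per group no difference below has a replicate check and no test between conditions was possible. Changes are given as the log2 ratio of FPKM + 1 in the treated library over its control, and a gene is said to have risen or fallen at a change of at least 2-fold on that scale. Intervals cover 95% counting error of the reads only, and for ratios they leave out the pseudocount.

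The libraries held 16214802 to 18300670 reads assigned to genes. The melanocyte markers Tyr, Tyrp1, Dct, Pmel and Mlana all lay above 1 FPKM in all 5 libraries, with sums from 1994 FPKM with Pparg expression to 8672 FPKM with Setdb1 knockdown. Skeletal muscle markers summed to 19139 FPKM with Myod1 expression, with all 5 above 1 FPKM, and to at most 1.02 FPKM elsewhere. Adipocyte markers summed to 345 FPKM with Pparg expression, where Adipoq was not among the 4 of 5 above 1 FPKM, and to at most 0.123 FPKM elsewhere. Of the 5 mast cell markers, cells that also depend on Kit and Mitf, 4 had no read in any library and the fifth, Hdc, peaked at 1.25 FPKM with Setdb1 knockdown. Ptprc, Csf1r, Adgre1 and Mpeg1 of macrophages and all 5 keratinocyte markers stayed under 1 FPKM throughout. The 5 fibroblast markers summed to 2.50 FPKM with Pparg expression, where Col1a1 stood at 1.92 FPKM, and to 0.438 to 1.22 FPKM elsewhere, with Dcn and Lum at 0 reads in every library. Schwann cell markers summed to at most 5.25 FPKM. The macrophage-associated lysosomal gene Cd68 stood at 12.2 and 4.0 FPKM in the expression and knockdown vector controls, and at 4.30, 1.87 and 18.7 FPKM with Myod1 expression, Pparg expression and Setdb1 knockdown. Setdb1 itself stood at 0.867 FPKM in its knockdown library and at 9.82 FPKM in the control. In bulk RNA fewer cells of a type and less RNA per cell cannot be told apart, and the part that muscle or fat transcripts in the treated libraries play in the values below was not tested.

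The regulatory sequences at the top and the bottom of the circuit are shown first, because Mitf, Mc1r, Cited1 and the pigment genes that hold them are those whose levels the text turns on. RefSeq (GRCm38.p6) gave promoter windows from 250 bases before to 50 bases after a transcript start for 8 of the 10 genes, without Sox10 and Pax3. Mitf has 3 such starts, and the most internal one lies where the melanocyte first exon is known to begin. Its window, chr6:97991533-97991832 on the plus strand, is printed with the LEF motif CTTTGA and the cAMP response element core TGACGT (with its reverse complement) in capitals.
Mitf, internal start: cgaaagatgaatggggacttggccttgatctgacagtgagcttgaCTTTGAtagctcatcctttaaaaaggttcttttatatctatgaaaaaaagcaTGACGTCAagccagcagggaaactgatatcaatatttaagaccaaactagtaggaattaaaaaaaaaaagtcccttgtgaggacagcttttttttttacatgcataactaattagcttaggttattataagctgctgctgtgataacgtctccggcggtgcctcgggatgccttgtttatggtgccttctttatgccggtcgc
The LEF motif began 205 bases before the start. The cAMP element core began 153 bases before it on the plus strand and overlapped its own reverse complement 151 bases before it, so the 2 matches form 1 palindrome. Searched on both strands, the LEF motif was present in 16% of all 32851 windows and the cAMP element core in 7.51%. The SOX motif ACAAAG, present in 18.7% of all windows, was also searched. Among the members it was found at Lef1 and in none of the 3 Mitf windows, which says only that these letters are not in them. The LEF motif was also found at Lef1, at Mc1r and 8 bases after the second Mitf start, and the cAMP element core also at Ednrb. The AP-2 motif GCCNNNGGC, in 16.6% of all windows, was found at 5 of the 8 members with a window (Mitf, Cited1, Kit, Ednrb and Mc1r). The E-box CACGTG, in 7.15% of all windows, was found at Lef1.

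The output side is the M-box core CATGTG (reverse complement CACATG), which 14.2% of all windows held. Among the members it was found at Mc1r and Cited1, the receptor and the coregulator whose values are given below, and among 10 of 14 pigment targets with a window it was found at 6, namely Tyr, Tyrp1 and Dct (enzymes of melanin synthesis), Slc24a5, Trpm1 and Oca2. Genes can have several windows, so these counts per gene and the share per window are not on the same base. The windows of Mc1r (chr8:123406832-123407131, plus strand), Cited1 at its second start (chrX:102251794-102252093, minus strand), Tyr (chr7:87493463-87493762, minus strand), Tyrp1 (chr4:80833963-80834262, plus strand) and Dct (chr14:118052197-118052496, minus strand) are printed with the M-box core in capitals.
Mc1r: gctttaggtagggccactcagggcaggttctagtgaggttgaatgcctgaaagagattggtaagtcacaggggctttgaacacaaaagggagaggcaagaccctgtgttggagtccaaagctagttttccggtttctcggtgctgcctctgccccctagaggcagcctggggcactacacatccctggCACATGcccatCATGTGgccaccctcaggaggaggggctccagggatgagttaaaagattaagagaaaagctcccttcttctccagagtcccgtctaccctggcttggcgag
Cited1, second start: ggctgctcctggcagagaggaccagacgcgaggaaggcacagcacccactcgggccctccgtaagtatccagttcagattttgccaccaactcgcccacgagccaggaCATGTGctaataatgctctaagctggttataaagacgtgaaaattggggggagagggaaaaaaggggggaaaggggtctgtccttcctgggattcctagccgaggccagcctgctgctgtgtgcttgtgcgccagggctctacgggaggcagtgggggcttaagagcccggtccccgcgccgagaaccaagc
Tyr: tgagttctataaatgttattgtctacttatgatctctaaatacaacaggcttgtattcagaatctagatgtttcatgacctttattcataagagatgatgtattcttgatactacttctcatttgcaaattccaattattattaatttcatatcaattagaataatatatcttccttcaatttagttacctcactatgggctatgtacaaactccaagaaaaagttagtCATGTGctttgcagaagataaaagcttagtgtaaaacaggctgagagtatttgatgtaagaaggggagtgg
Tyrp1: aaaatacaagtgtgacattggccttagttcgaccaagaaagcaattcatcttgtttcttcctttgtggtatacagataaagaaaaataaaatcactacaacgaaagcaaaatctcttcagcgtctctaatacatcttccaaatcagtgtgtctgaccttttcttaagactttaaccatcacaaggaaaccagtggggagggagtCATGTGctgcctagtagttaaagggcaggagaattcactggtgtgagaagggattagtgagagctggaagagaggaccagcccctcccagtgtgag
Dct: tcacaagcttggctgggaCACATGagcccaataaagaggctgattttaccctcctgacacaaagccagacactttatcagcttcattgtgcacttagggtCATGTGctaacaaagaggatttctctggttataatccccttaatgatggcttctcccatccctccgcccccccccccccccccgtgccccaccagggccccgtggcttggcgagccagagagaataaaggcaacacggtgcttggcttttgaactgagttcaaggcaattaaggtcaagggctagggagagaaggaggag
The Mc1r window held the core 62 and 51 bases before the start, once on each strand, and the Cited1 window held it 142 bases before the start. A match is a description of the letters and does not show that a factor was bound.

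**Figure D1:**
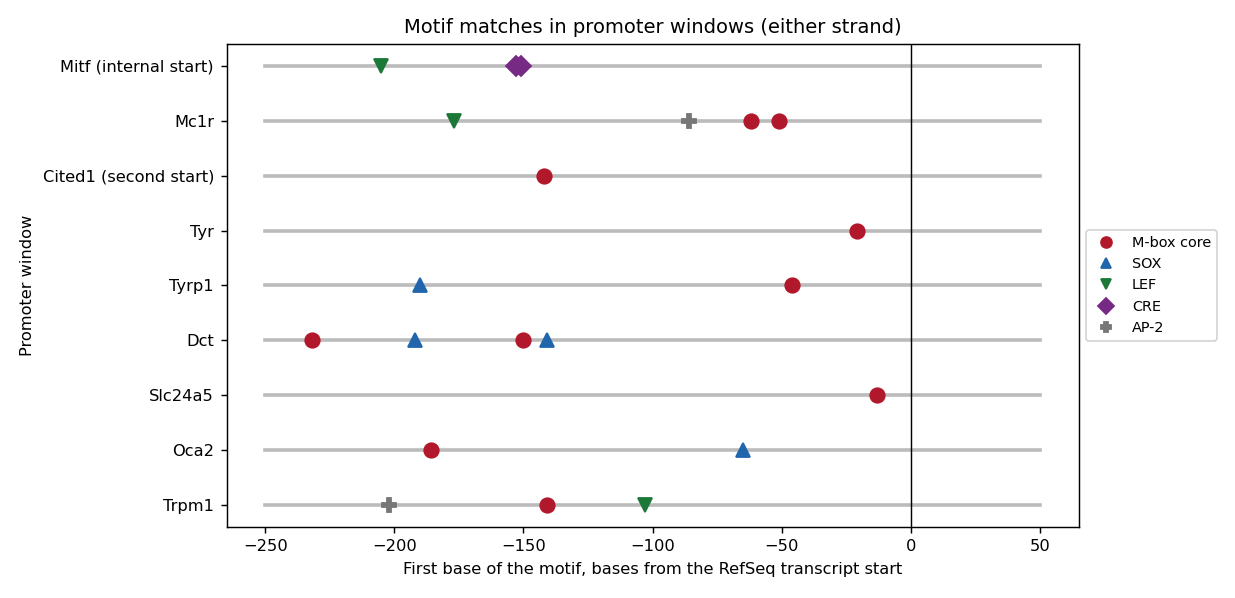
Motif matches on either strand in 9 RefSeq promoter windows, drawn by the first base of the match in bases from the transcript start (vertical line). The M-box core is marked at Mc1r, Cited1 and 6 pigment genes, while the internal start of Mitf holds the LEF motif 205 bases and the cAMP element core 153 bases before the start.

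With Myod1 expression 4 of the 7 genes compared fell at least 2-fold (Mitf, Pax3, Tfap2a and Mc1r) and none rose, where 7.55% of all genes compared fell, 14.0% rose and 21.6% changed either way. These shares depend on the scaling: as deposited 1798 genes rose and 970 fell, while after division by the FPKM sum 1237 rose and 1901 fell and the median of all genes moved to -0.26. The 4 members fell under each scaling run. With Pparg expression 1 of 7 fell (Mc1r), beside 2.30% of all genes that fell, 4.22% that rose and 6.52% either way. With Setdb1 knockdown 1 of 7 fell (Mitf) and 1 of 7 rose (Cited1), beside 10.3% and 9.34% of all genes, or 19.7% either way. Between the 2 controls none of the 7 differed 2-fold, beside 2.67% of all genes (1.23% higher and 1.44% lower in the knockdown vector control). The median log2 ratio of the 7 was -1.18 for Myod1, -0.61 for Pparg and -0.73 for Setdb1, and -0.19 between the controls, while that of all genes lay between -0.02 and 0.02. All 7 lay below both controls with Myod1 expression, as did 40.5% of all genes, 5 of 7 with Pparg expression (39.3% of all genes) and 4 of 7 with Setdb1 knockdown (40.3%). Above both controls lay none with Myod1 expression (44.0% of all genes), none with Pparg expression (35.0%) and 3 with Setdb1 knockdown (43.1%), namely Cited1, Sox10 and Tfe3. The members were picked with results of these data known, and these counts describe them without a test.

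**Figure D2:**
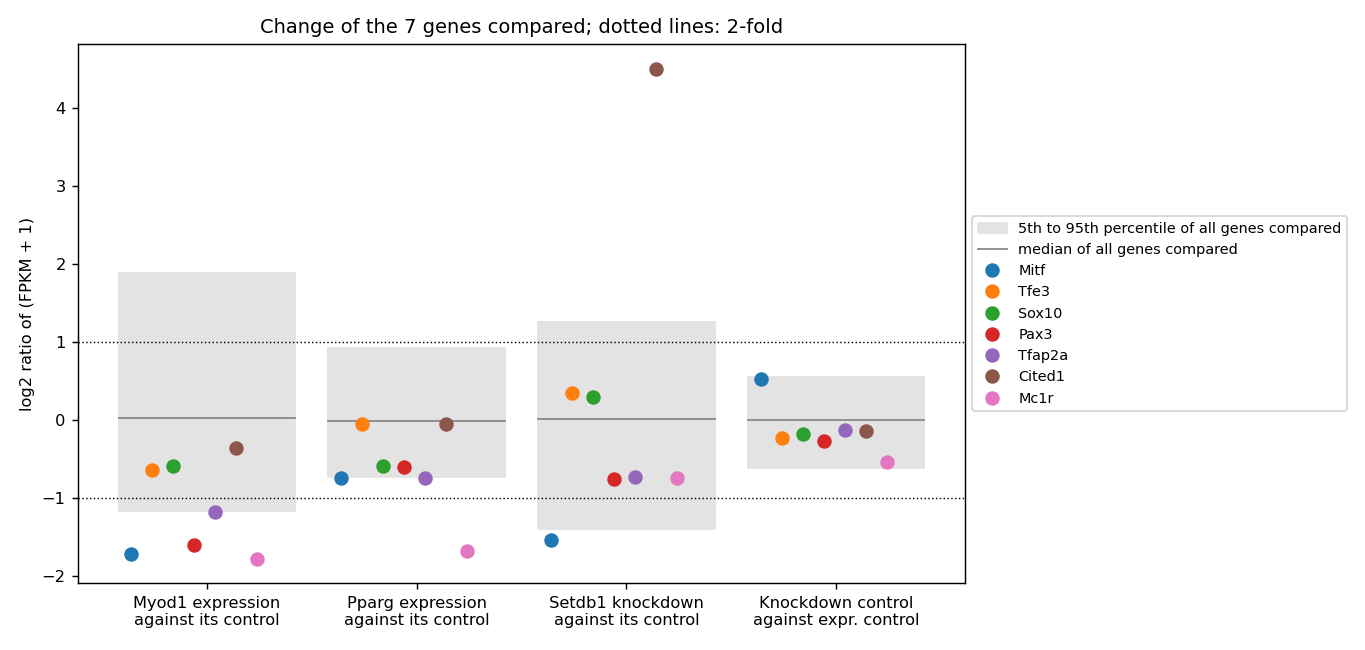
Log2 ratio of FPKM + 1 (vertical axis) of the 7 genes compared in each of 4 comparisons; points are genes from 1 library against 1 library, and grey bands span the 5th to 95th percentile of all 12842 genes compared. Below the band lie Mitf, Pax3, Mc1r and, at its edge (-1.17), Tfap2a (-1.18) with Myod1 expression, Mc1r (-1.68) and, at its edge (-0.728), Mitf (-0.751) and Tfap2a (-0.75) with Pparg expression, and Mitf (-1.54, edge -1.40) with Setdb1 knockdown, where Cited1 lies above it at 4.50.

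Mitf was lower in each treated library than in both controls. Mitf (ENSMUSG00000035158, chromosome 6, 97807052 to 98021349, plus strand) stood at 28.7 FPKM (interval 27.7 to 29.8) in the expression vector control and at 41.6 FPKM (40.3 to 42.8) in the knockdown vector control. It stood at 8.03 FPKM (7.47 to 8.61) with Myod1 expression, 13.7 FPKM (13.0 to 14.4) with Setdb1 knockdown and 16.7 FPKM (15.9 to 17.4) with Pparg expression. The controls differed from each other 1.45-fold, and no treated value reached the lower of them. Mitf fell 3.58-fold with Myod1 expression (ratio 0.279, interval 0.258 to 0.302, log2 ratio -1.72). It fell 3.04-fold with Setdb1 knockdown (ratio 0.329, interval 0.310 to 0.348, log2 ratio -1.54), and its log2 ratio against the other control was -1.02. With Pparg expression it was 1.72-fold lower (log2 ratio -0.75), short of the 2-fold limit, and -1.27 against the other control, past it. The table gives 1 value per gene, so the 8 annotated Mitf transcripts and their several first exons are not separated.

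Sox10, which activates Mitf and specifies the lineage from the neural crest, was the most abundant of the 10 genes in all 5 libraries. Sox10 (ENSMUSG00000033006, chromosome 15, 79154908 to 79165240, minus strand) stood at 278 FPKM in the expression vector control, 185 FPKM with Myod1 expression and 185 FPKM with Pparg expression. It stood at 244 FPKM in the knockdown vector control and 298 FPKM with Setdb1 knockdown. Its log2 ratio was -0.59 both for Myod1 and for Pparg expression and 0.29 for Setdb1 knockdown, all under 2-fold. The last value became -0.20 when the trend of log2 ratios with GC content was removed, so its direction depended on that step. The Mitf level as a share of the Sox10 level, which no scaling of a library can change, was 10.3% and 17.0% in the expression and knockdown vector controls. The same share was 4.34% with Myod1 expression, 4.58% with Setdb1 knockdown and 9.03% with Pparg expression. The trend with GC content can change it, because Mitf (43.4% GC) and Sox10 (61.8%) differ in GC. With that trend removed Mitf and Sox10 stood at -1.537 and -0.98 with Myod1 expression and at -1.223 and -0.201 with Setdb1 knockdown. These gaps are smaller than those as deposited. With Pparg expression the 2 genes then stood at -0.625 and -0.748, so Mitf was no longer the lower.

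Pax3 and Tfap2a fell with Myod1 expression and were lower by less than 2-fold with Pparg expression and Setdb1 knockdown. Pax3 (ENSMUSG00000004872, chromosome 1, 78101267 to 78197134, minus strand), a paired-box activator of Mitf that also acts in muscle precursors, stood at 32.7 FPKM in the expression vector control and 27.0 FPKM in the knockdown vector control. It stood at 10.1 FPKM with Myod1 expression, 15.5 FPKM with Setdb1 knockdown and 21.1 FPKM with Pparg expression, all 3 below both controls. The log2 ratios were -1.60, -0.76 and -0.61, and the second became -1.03 against the other control. Pax3 as a share of the Sox10 level was 11.8% and 11.1% in the 2 controls, 11.4% with Pparg expression, 5.47% with Myod1 expression and 5.21% with Setdb1 knockdown. With Pparg expression the 2 factors were thus lower to a like extent, while in the other 2 treated libraries Pax3 was lower relative to Sox10. With the trend with GC content removed Pax3 and Sox10 stood at -1.588 and -0.98 with Myod1 expression and at -0.69 and -0.201 with Setdb1 knockdown. With Pparg expression they then stood at -0.552 and -0.748.

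Tfap2a (ENSMUSG00000021359, chromosome 13, 40715302 to 40738376, minus strand) encodes AP-2 alpha, a neural crest factor that acts with Mitf at melanocyte genes. It stood at 19.0 FPKM and 17.2 FPKM in the expression and knockdown vector controls, which were close together (ratio 0.910, interval 0.846 to 0.979). It stood at 7.82 FPKM with Myod1 expression, 9.99 FPKM with Setdb1 knockdown and 10.9 FPKM with Pparg expression, so again the 3 treated libraries lay below both controls. Its log2 ratio was -1.18 with Myod1 expression, -0.73 with Setdb1 knockdown and -0.75 with Pparg expression. The antisense genes Gm26688, Gm47061 and Gm47067 overlap Tfap2a, each with at most 33 reads in any library. Without strand their reads and those of Tfap2a cannot be told apart where they overlap.

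**Figure D3:**
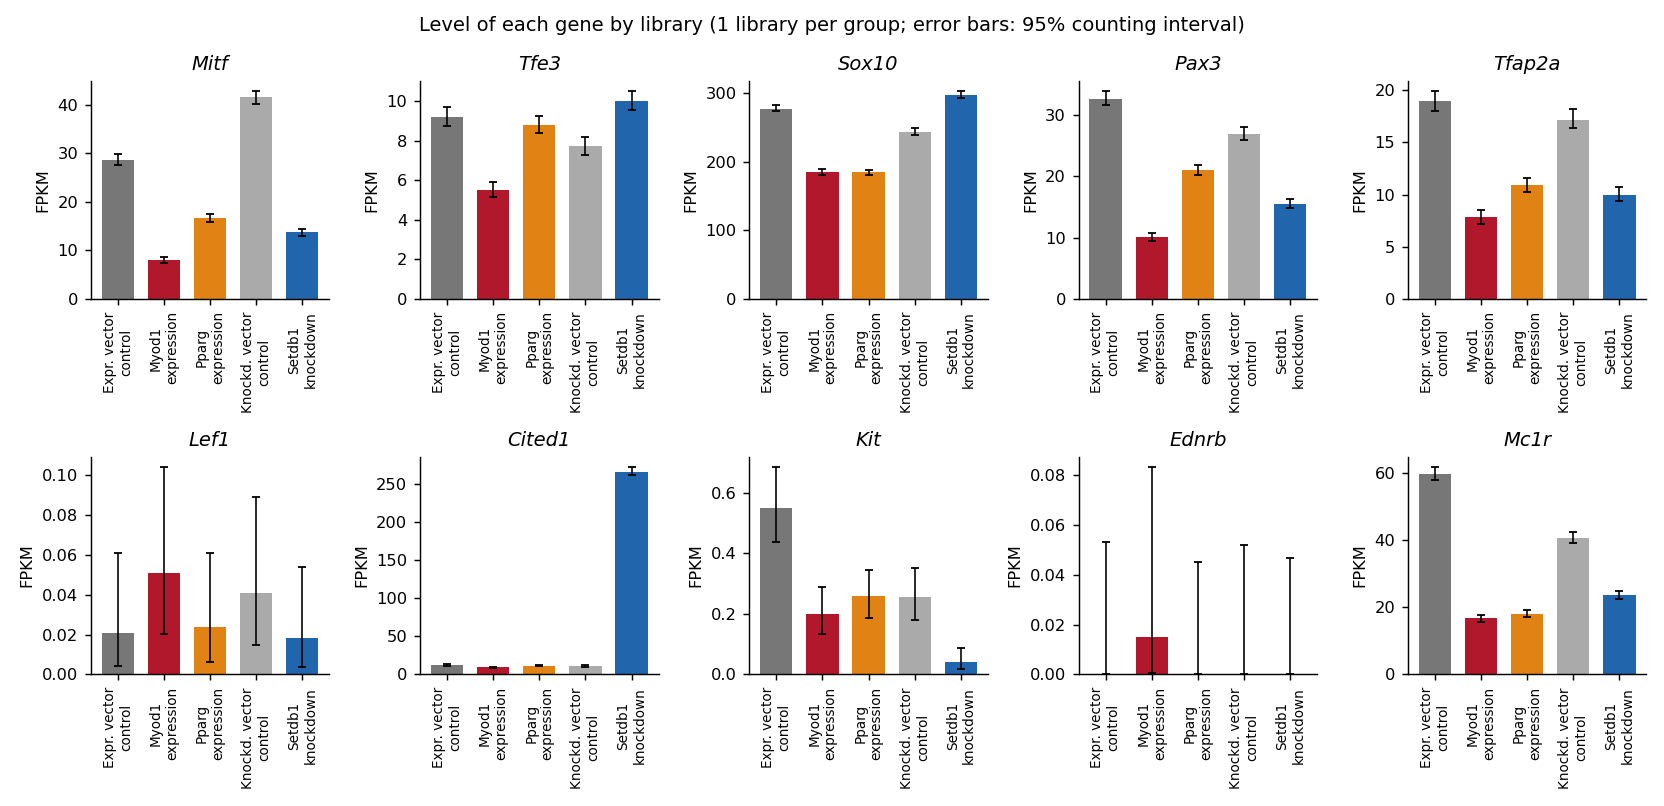
FPKM of each of the 10 genes (vertical axes, each from 0) in the 5 libraries; bars are single libraries and error bars 95% counting intervals. Mitf, Pax3, Tfap2a and Mc1r are below both controls in all 3 treated libraries, and Cited1 stands apart at 266 FPKM with Setdb1 knockdown.

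Neither Tfe3 nor Tfeb, the other MiT/TFE genes at appreciable levels, changed 2-fold in any comparison. Tfe3 (ENSMUSG00000000134, chromosome X, 7762560 to 7775202, plus strand), a regulator of lysosome and metabolic genes that binds the same E-boxes, stood at 9.21 FPKM and 7.72 FPKM in the expression and knockdown vector controls. It stood at 5.53 FPKM with Myod1 expression (log2 ratio -0.65), 8.82 FPKM with Pparg expression (-0.06) and 10.0 FPKM with Setdb1 knockdown (0.34). The Pparg value lay between the controls and became positive against the other control (0.17) and after division by the column sum. Tfeb, the lysosomal regulator of the family, stood at 6.90 FPKM and 6.99 FPKM in the controls and 11.4 FPKM with Myod1 expression (log2 ratio 0.65). It stood at 5.60 FPKM with Pparg expression and 7.84 FPKM with Setdb1 knockdown. Tfec had at most 4 reads in any library.

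Summed over the 4 paralogs, Mitf made up 64.1% of the family's FPKM in the expression vector control and 73.9% in the knockdown vector control. It made up 53.6% with Pparg expression, 43.3% with Setdb1 knockdown and 32.1% with Myod1 expression. In the Myod1 library Tfeb, at 45.7%, had the highest level of the family, whereas in the other 4 libraries Mitf did. These shares are within a library and do not depend on its scaling. The trend with GC content can change them. With it removed the log2 ratios of Tfeb, Tfe3 and Mitf with Myod1 expression stood at 0.262, -0.799 and -1.537. The sum of Tfe3 and Tfeb stayed between 14.4 and 17.9 FPKM in the 5 libraries. Among 6 genes that act on MiT/TFE proteins at the lysosome, Flcn (folliculin, log2 ratio 1.38) and Rragd (a Rag GTPase, 1.38) rose with Myod1 expression and Fnip2 (-1.17), a folliculin partner, fell, where 14.0% of all genes rose and 7.55% fell. After division of each library by its FPKM sum Flcn and Rragd stood at 0.989 and 0.998, just short of 2-fold. None of the 6 changed 2-fold in the Pparg or the Setdb1 comparison, where 6.52% and 19.7% of all genes did. With Pparg expression Flcn stood at 0.22 and Rragd at -0.90. With Setdb1 knockdown Flcn stood at 0.74 and Rragd at 0.93, and Rragd passed 2-fold (1.07) with the trend with GC content removed. With a pseudocount of 0.1 1 of the 6 passed 2-fold there.

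**Figure D4:**
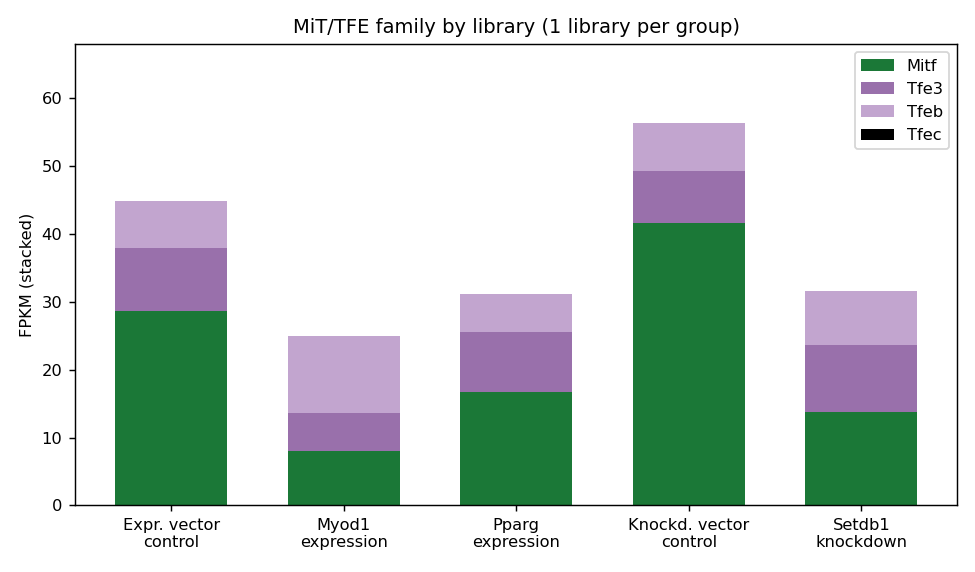
Stacked FPKM of Mitf, Tfe3, Tfeb and Tfec in each of the 5 libraries; each bar is 1 library. The Mitf segment is the largest in every library except the one with Myod1 expression, where Tfeb reaches 11.4 FPKM.

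Lef1, the partner of beta-catenin at Wnt targets and a known activator of the Mitf melanocyte promoter, was at the limit of detection. Lef1 (ENSMUSG00000027985, chromosome 3, 131110471 to 131224356, plus strand) had 3 reads in the expression vector control, 7 with Myod1 expression, 4 with Pparg expression, 3 with Setdb1 knockdown and 6 in the knockdown vector control. These are levels of 0.0184 to 0.0507 FPKM, and the intervals of all 5 overlap. With Myod1 expression the ratio was 2.42 with an interval of 0.553 to 14.5, so no difference was detectable at this depth. The related factors that bind the same motif were present at low levels: Tcf7l1 at 4.0 to 5.68 FPKM, Tcf7 at 1.26 to 2.64 FPKM and Tcf7l2 at 1.20 to 2.15 FPKM. On the scale of FPKM + 1 none of them changed 2-fold in the 3 treatments. Without the pseudocount Tcf7 was just past 2-fold lower with Setdb1 knockdown, at 1.26 FPKM against 2.60 FPKM in its control. Of 6 Wnt feedback genes, 3 were compared. Axin2 stood at log2 ratios of -0.53, -0.42 and 0.57 with Myod1 expression, Pparg expression and Setdb1 knockdown. Nkd1 rose with Myod1 expression (2.35, from 1 read to 298, a ratio of 310.0 with an interval of 55.1 to 12269) and Znrf3 fell with Setdb1 knockdown (-1.06, and -0.72 against the other control).

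Cited1 was the member with the largest change, and it rose with Setdb1 knockdown. Cited1 (ENSMUSG00000051159, chromosome X, 102247381 to 102252181, minus strand) binds the coactivators CBP and p300 and is known as a melanocyte-enriched coregulator. It rested on 8641 reads and 266 FPKM (261 to 272) in the Setdb1 knockdown library, against 316 reads and 10.8 FPKM in its control. In the other libraries it stood at 12.0 FPKM in the expression vector control, 11.5 FPKM with Pparg expression and 9.10 FPKM with Myod1 expression. The ratio was 24.7 (interval 22.1 to 27.7), and over the alternative settings the log2 ratio of 4.50 ranged from 4.02 to 4.61. In the knockdown library the Cited1 level was thus close to that of Sox10, at 298 FPKM, while in its control Sox10 stood far above it. The nearest genes compared on either side did not change 2-fold: Hdac8, 32.5 kb away, stood at a log2 ratio of -0.07, and Rps4x, 58.0 kb away on the other side, at 0.36. Ercc6l, 90.3 kb away, fell (-2.27). With Myod1 expression the Cited1 log2 ratio was -0.36, and with Pparg expression it was -0.05, positive against the other control (0.09).

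The 3 receptors of the circuit were expressed at very different levels, and Mc1r was the only one above 1 FPKM. Mc1r (ENSMUSG00000074037, chromosome 8, 123407107 to 123410744, plus strand) stood at 59.9 FPKM (58.0 to 61.9) in the expression vector control and 40.8 FPKM (39.2 to 42.4) in the knockdown vector control. It stood at 16.7 FPKM with Myod1 expression, 18.0 FPKM with Pparg expression and 23.8 FPKM with Setdb1 knockdown, below both controls in each case. It fell 3.58-fold with Myod1 expression (log2 ratio -1.78) and 3.32-fold with Pparg expression (-1.68), where it was the only member that fell. With Setdb1 knockdown it was 1.72-fold lower (-0.75), and -1.30 against the other control. A gene model of uncertain status, Gm38092, lies on the other strand within the Mc1r exon with 0 reads. A protein-coding model on the same strand, Gm20388, spans the locus with no exon that overlaps that of Mc1r, and it also had 0 reads. The nearest gene compared, Tubb3, lies 0.68 kb away and stood at log2 ratios of -0.57, -1.27 and -1.70 with Myod1 expression, Pparg expression and Setdb1 knockdown.

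Kit, the receptor tyrosine kinase for stem cell factor, was present at a trace. Kit (ENSMUSG00000005672, chromosome 5, 75574916 to 75656722, plus strand) had 80 reads (0.550 FPKM) in the expression vector control, 28 reads (0.200 FPKM) with Myod1 expression and 44 reads (0.258 FPKM) with Pparg expression. It had 38 reads (0.255 FPKM) in the knockdown vector control and 7 reads (0.0424 FPKM) with Setdb1 knockdown. The ratio with Setdb1 knockdown was 0.166 (interval 0.0627 to 0.377), the lowest of the 3 treatments. With Myod1 expression it was 0.364 (0.228 to 0.566) and with Pparg expression 0.469 (0.317 to 0.685). The 2 controls differed from each other by a ratio of 0.464 (0.307 to 0.691). Both the Myod1 and the Pparg value lay within the interval of the knockdown vector control (0.180 to 0.350 FPKM). The Setdb1 knockdown library was the one whose interval lay below those of both controls and of the other treatments. Its ligand Kitl stood at 0.0640 to 0.388 FPKM in the 5 libraries.

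Ednrb (ENSMUSG00000022122, chromosome 14, 103814625 to 103844402, minus strand), the endothelin receptor of melanoblasts, had 1 read with Myod1 expression and 0 reads in the other 4 libraries. A count of 0 allows up to 0.0367 to 0.0430 FPKM, so the gene was not detectable at this depth and no fold can be given. Its ligands Edn1, Edn2 and Edn3 had 0 reads in every library. Pomc, the precursor of the melanocortin peptides that activate Mc1r, rose with Setdb1 knockdown from 20 to 101 reads (0.907 to 4.14 FPKM, log2 ratio 1.43, and 0.98 with the trend with GC content removed). It stood at 0.80 with Myod1 expression and 0.92 with Pparg expression on that scale, both from 20 reads in the control. Gnas, the G protein subunit that couples Mc1r to cAMP, rose with Myod1 expression (2.38) and Setdb1 knockdown (1.14) and stood at 0.68 with Pparg expression. The value with Setdb1 knockdown was 0.96 against the other control and 0.79 with the trend with GC content removed.

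The genes whose profile over the 5 libraries was most like that of Mitf were not among the pigment targets listed here. By root mean square distance between log2(FPKM + 1) values centred on their own mean, the 5 nearest were Fam198b (0.160), Bend6 (0.171), Slc35f1 (0.177), the pseudogene Hmgb1-ps2 (0.179), whose reads may be shared with its parent gene, and Slc27a6 (0.185). Fam198b stood at 23.4 and 43.0 FPKM in the expression and knockdown vector controls and at 8.78, 18.5 and 14.9 FPKM with Myod1 expression, Pparg expression and Setdb1 knockdown, close to the Mitf values. The pseudocount damps changes of low genes: Slc35f1 stood at 2.80 FPKM in the expression vector control and 0.206 FPKM with Myod1 expression. For Cited1 the nearest were Gm45847 (0.437), Ggt1 (0.522), Prss12 (0.576), Mir6955 (0.645) and Kcnj13 (0.788). The distance is not scaled for the size of a gene's changes, so the distances for Cited1 and for Mitf cannot be compared. Ggt1 reached 57.2 FPKM with Setdb1 knockdown against 6.38 FPKM in the control. A distance over 5 libraries is a description of these libraries.

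Of 14 pigment targets, all compared, 6 fell and none rose with Myod1 expression, 12 fell and none rose with Pparg expression, and 2 fell and 1 rose with Setdb1 knockdown. Of all genes 7.55%, 2.30% and 10.3% fell in these comparisons, and 9.34% rose with Setdb1 knockdown. The medians of their log2 ratios were -0.95, -1.32 and -0.44, against 0.19 between the controls. After division by the FPKM sum the numbers that fell were 11 for Myod1 (where 1901 of all 12842 genes then fell), 9 for Pparg and 4 for Setdb1, and with the trend with GC content removed the numbers were 5, 9 and 3. Tyr, the tyrosinase that starts melanin synthesis, stood at 76.2 and 76.9 FPKM in the expression and knockdown vector controls, 24.5 FPKM with Myod1 expression, 30.6 FPKM with Pparg expression and 52.9 FPKM with Setdb1 knockdown. Dct, a melanin-synthesis enzyme with 2 M-box cores in its window above, fell with Myod1 expression (-1.86) and Pparg expression (-2.03) but stood at 0.12 with Setdb1 knockdown, and -0.24 against the other control.

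Pmel, the fibril protein of melanosomes, stood at 3014 and 2993 FPKM in the 2 controls. It stood at 536 FPKM with Pparg expression, 1248 FPKM with Myod1 expression and 4347 FPKM with Setdb1 knockdown. Per unit of Mitf FPKM this is 105 and 72.0 in the controls, 32.1 with Pparg expression, 155 with Myod1 expression and 318 with Setdb1 knockdown, so the order of the libraries by Pmel was not the order by Mitf. Oca2, a melanosome channel gene, rose with Setdb1 knockdown (1.18) and fell with Pparg expression (-1.44). Slc45a2 (-1.49), a melanosome transporter, and Myo5a (-1.68), the motor that carries melanosomes, were the 2 that fell with Setdb1 knockdown.

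Among Mitf targets outside pigmentation, Met, the receptor for hepatocyte growth factor, stood at 128 and 126 FPKM in the controls and fell to 24.9 FPKM with Myod1 expression, 41.7 FPKM with Pparg expression and 22.7 FPKM with Setdb1 knockdown (log2 ratios -2.31, -1.59 and -2.42). Its fall was larger than that of Mitf in all 3 comparisons. Bcl2, an inhibitor of apoptosis, fell with Myod1 expression (-1.27, and -0.996 against the other control) and Setdb1 knockdown (-1.08) and stood at -0.45 with Pparg expression. Ppargc1a, a coactivator of mitochondrial genes, fell with Setdb1 knockdown (-1.63) and stood at -0.19 and -0.18 with Myod1 and Pparg expression. Cdkn1a, a cell-cycle inhibitor with many other inputs, rose with Myod1 expression (1.83) and Setdb1 knockdown (1.13, and 0.87 with the trend with GC content removed). Mcoln1, a lysosomal channel gene, rose with Setdb1 knockdown (1.40, and 0.97 against the other control). Of the 10 of 14 genes compared in this list, 2 fell and 1 rose with Myod1 expression, 2 fell and none rose with Pparg expression, and 4 fell and 2 rose with Setdb1 knockdown. Of all genes 7.55% fell and 14.0% rose with Myod1 expression, 2.30% fell and 4.22% rose for Pparg, and 10.3% fell and 9.34% rose for Setdb1, so the 1 of 10 that rose with Myod1 expression is near the background. With the trend with GC content removed 2 fell and 1 rose with Setdb1 knockdown: Met stood at -2.21 and Ppargc1a at -1.12, past 2-fold, and Bcl2 at -0.87. Against the other control 1 fell with Myod1 expression, and 3 fell and 1 rose with Setdb1 knockdown. After division by the FPKM sum 3 fell with Myod1 expression.

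**Figure D5:**
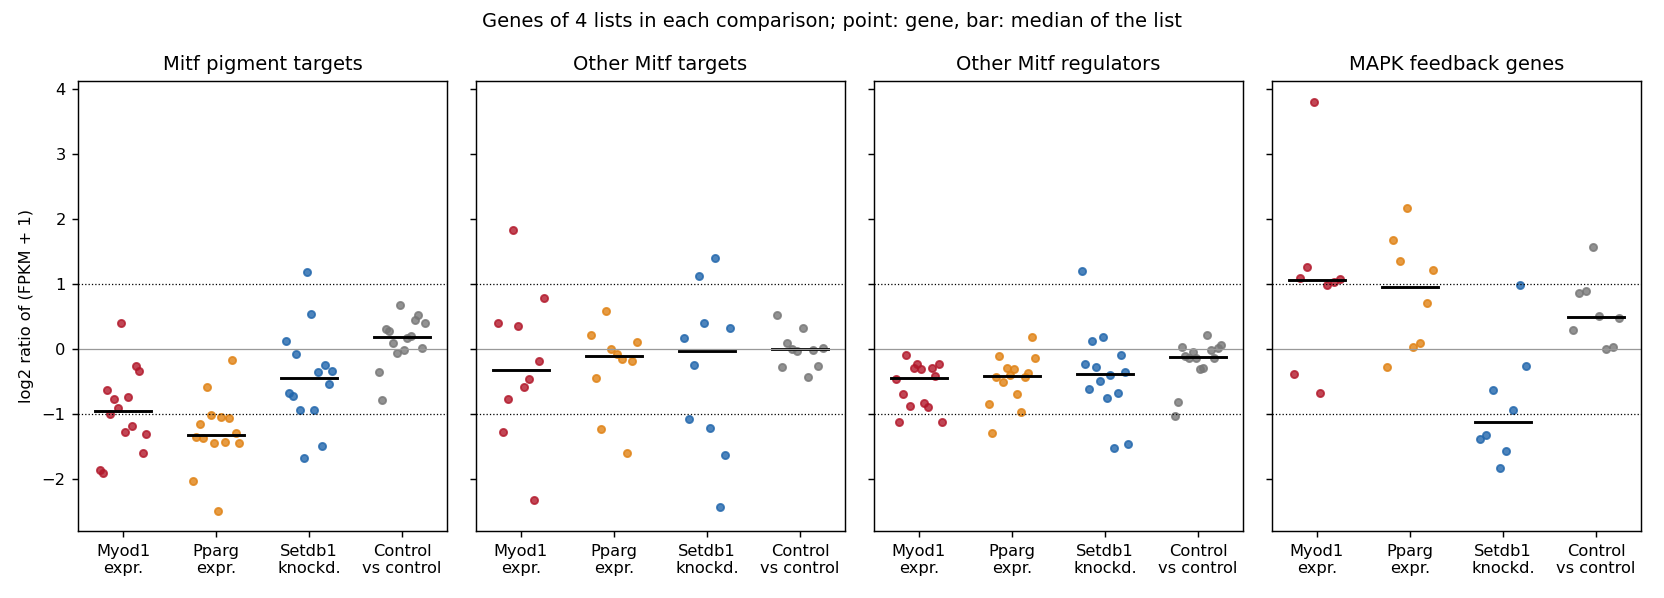
Log2 ratio of FPKM + 1 (vertical axis) for the genes of 4 lists in each comparison; each point is a gene and each horizontal bar the list's median. The pigment targets have medians of -0.95, -1.32 and -0.44 in the 3 treatments, and the MAPK feedback genes have medians on opposite sides of 0.

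Of 21 other known regulators and cofactors of Mitf, 14 were compared. With Myod1 expression 2 fell (the zinc finger factor Zeb2, -1.12, and the repressor Bhlhe40, -1.12) and none rose, and with Pparg expression 1 fell (Bhlhe40, -1.30) and none rose. With Setdb1 knockdown the HMG-box factor Sox9 (-1.53) and Zeb2 (-1.46) fell and Atf4 (1.20), a stress factor, rose. Of all genes 7.55%, 2.30% and 10.3% fell in the same comparisons, and 9.34% rose in the last, so these few calls stand near the background. Bhlhe40 stood at -0.31 and -0.49 with Myod1 and Pparg expression against the other control, and Atf4 differed by -1.03 between the controls and stood at 0.17 against the other control, so these 3 calls rest on the control chosen. With the trend with GC content removed Zeb2 stood at -0.82 with Myod1 expression and -0.95 with Setdb1 knockdown. The number that fell with Myod1 expression was 4 after division by the FPKM sum, 4 after scaling to the 75th percentile and 5 with a pseudocount of 0.1, and 1 with the trend with GC content removed. With Pparg expression it was 3 with a pseudocount of 0.1. With Setdb1 knockdown 4 fell and none rose against the other control, and 1 fell and none rose with the trend with GC content removed. The medians were -0.44, -0.42 and -0.38, against -0.12 between the controls.

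Erbb3 and S100b, targets of Sox10 outside the pigment program, changed 2-fold where Sox10 did not. Erbb3, a neuregulin receptor of the crest lineage, rose with Myod1 expression (1.63) and Setdb1 knockdown (1.35, and 0.73 against the other control) and fell with Pparg expression (-1.51, and -0.89 against the other control). S100b, a calcium-binding protein of crest derivatives, rose with Setdb1 knockdown (1.12, and 0.84 against the other control).

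Below the receptors, 8 MAPK feedback genes, which are switched on by signalling through this kinase pathway, were compared. Of these, 5 rose with Myod1 expression, 4 rose with Pparg expression and 4 fell with Setdb1 knockdown, beside 14.0%, 4.22% and 10.3% of all genes, with medians of 1.06, 0.96 and -1.13. Not all members followed these medians: Spry2 was higher in all 3 treatments (log2 ratios 1.03, 0.71 and 0.99) and Dusp4 lower in all 3 (-0.39, -0.28 and -1.39). All 8 were higher in the knockdown than in the expression vector control, with a median of 0.49 and 1 of them past 2-fold. Against the other control 1 rose and 1 fell with Myod1 expression, none changed 2-fold with Pparg expression, and 1 rose and 2 fell with Setdb1 knockdown. After division by the FPKM sum 2 rose with Myod1 expression. Dusp6, a phosphatase of the pathway, stood at 15.3 FPKM in the expression vector control, 33.7 FPKM with Myod1 expression and 51.3 FPKM with Pparg expression, but at 28.6 FPKM in the knockdown vector control and 10.9 FPKM with Setdb1 knockdown. Etv5, a transcription factor induced by the pathway, stood at 0.463 and 3.37 FPKM in the 2 controls. Against the other control its log2 ratio of -1.84 with Setdb1 knockdown became -0.26 and that of 2.17 with Pparg expression became 0.59, while that of 3.81 with Myod1 expression became 2.23. Of 9 signalling genes below the receptors, 1 rose with Myod1 expression, where 14.0% of all genes rose, and none changed 2-fold with Pparg expression, where 6.52% did. With Setdb1 knockdown 2 rose and 1 fell, where 9.34% of all genes rose and 10.3% fell, and none of the 9 changed 2-fold against the other control or with the trend with GC content removed. After division by the FPKM sum 1 rose and 2 fell with Myod1 expression.

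Some genes are known to be high in melanoma cells with little Mitf. Among them Axl, a receptor kinase, stood at 5.35 FPKM in the expression vector control and 12.7 FPKM with Pparg expression (1.11), but at 2.62 FPKM with Myod1 expression (-0.81), where Mitf was lowest. Jun, a part of the AP-1 factor, rose with Setdb1 knockdown (2.45), and Tead4 rose with Myod1 expression (2.34) and fell with Pparg expression (-1.67). Ngfr, a neural crest receptor, was at 0.469 to 1.63 FPKM. On the scale of FPKM + 1 its differences stayed under 2-fold in the 3 treatments. Without the pseudocount its level with Setdb1 knockdown (75 reads, 1.18 FPKM, interval 0.925 to 1.47) was more than 2-fold that of its control. That control had 27 reads (0.469 FPKM, 0.309 to 0.682). The expression vector control stood at 1.63 FPKM, so the Setdb1 value lay between the controls.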

How the data were processed

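Total RNA from 5 cell cultures was made into libraries with the NEBNext Ultra RNA kit, per the labels' protocols. CASAVA, HISAT2, featureCounts 1.5.0-p3 and the build GRCm38 are named in the submitters' processing notes; counting settings, use of strand and normalization are not given in the sources used here. The authors deposited 1 table of FPKM values per gene. Each value above 0, multiplied by gene length, was a whole multiple of 1 step per library (100% within 0.01), which gave back the reads. The number each library was divided by was 0.859 to 1.10 times its reads and matched median-of-ratios size factors, so the values were scaled between libraries before deposit.

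Genes with at least 1 FPKM in at least 1 library were compared as log2 ratios with a pseudocount of 1, with Python 3.11.15, numpy 2.4.6, pandas 2.3.3 and scipy 1.17.1. Levels carry exact Poisson intervals and ratios Clopper-Pearson intervals. The floor for a count of 0 was 3 reads. Positions were as deposited: of 54409 identifiers shared with GENCODE M21 98.3% had the same one. The recovery of reads and the 2-fold calls were tested on simulated data. The 10 genes, 11 lists of 108 entries and 6 motifs were chosen with earlier results of these data known. Genes named are the 10, list genes with the 2 highest or 2 lowest log2 ratios of a list, genes compared with a member (ligand, paralog, target), and the 5 with the nearest profile. Others (neighbours of Cited1 and Mc1r, genes that overlap Tfap2a or Mc1r, Setdb1) and some list genes were named after their values were seen. The list symbols Asip and Attrn were not matched in the table. Some genes of the lists of Sox10 targets and of Mitf-low melanoma genes, and the counts over these lists, are not reported here. Alternatives were another pseudocount, filter, fold limit, scaling or control, and, chosen after seeing the data, removal of the trend with GC content.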

Additional observations from a re-analysis of the deposited data

How the results depend on the processing

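The count of genes at least 2-fold apart moved most with the limits. At 4-fold it was 608 with Myod1 expression, 114 with Pparg expression, 310 with Setdb1 knockdown and 36 for one control over the other, where the 2-fold counts were 2768, 837, 2526 and 343. With a pseudocount of 0.1 it was 4044 with Myod1 expression, 1729 with Pparg expression, 4027 with Setdb1 knockdown and 952 for one control over the other. A change against both controls was seen for 538 genes with Pparg expression. Of the 7 members compared, 0, 0 and 1 (Cited1) passed 4-fold with Myod1 expression, Pparg expression and Setdb1 knockdown, against 4, 1 and 2 at 2-fold. Against the other control 2 members passed 2-fold with Pparg expression (Mitf and Mc1r) and 4 with Setdb1 knockdown (Mitf, Pax3, Mc1r and Cited1). Under the other settings run the counts of members called did not change. The macrophage marker Cd68 fell with Myod1 (-1.31) and Pparg expression (-2.20) and rose with Setdb1 knockdown (1.98), but stood at 0.085, -0.80 and 0.58 against the other control. The causes were not tested. Dividing by the column sum shifted the median of all genes to -0.26 in the Myod1 comparison, where 1237 genes were then higher and 1901 lower, against 1798 and 970, and scaling to the 75th percentile shifted it to -0.11, with 1489 higher and 1334 lower; the 4 members that fell there fell under each of these. No paired analysis was possible because each group has 1 library and the labels carry no replicate numbers. Trace values (Kit, Lef1, Ednrb) are limited by read numbers of 0 to 80.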
